A study of Mus musculus with 4 samples.

Results

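Collagen chain genes encode the alpha chains of the collagen family, and they were taken as every listed gene whose symbol reads Col, a number, a and a number. The rule found 42 of the 28250 genes listed in each library. By chain type, 11 encode fibrillar chains, 6 encode the type IV chains of basement membranes and 25 encode other collagens. The 25 comprise 9 FACIT chains (fibril-associated collagens with interrupted helices), 5 beaded filament (type VI) chains, 3 short-chain network chains, 4 transmembrane chains, 2 multiplexins, the anchoring fibril chain Col7a1 and Col28a1.

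Collagens are secreted or membrane proteins in which 3 alpha chains wind into a triple helix, so a heterotrimer needs several genes at once. Fibrillar chains build the tensile fibrils of connective tissue and are made in bulk by fibroblasts, chondrocytes and osteoblasts, whereas type IV chains form the sheet-like network of basement membranes, the first matrix laid down by the early embryo and its endoderm. FACIT chains decorate fibrils, type VI chains form filaments around cells, and the remaining types anchor, span or surround membranes.

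The study asked how MS-275, an inhibitor of class I histone deacetylases (HDACs, enzymes that remove acetyl groups from histones), changes mouse embryonic stem cells (ESC). RNA-seq was carried out on TBV2, a feeder-dependent ESC line kept with LIF, the cytokine that holds ESC undifferentiated. A pair of libraries came from cells given solvent for 24 h and a pair from cells given 5 µM MS-275 for 24 h. All 4 came from the same line, on a layer of feeder cells and gelatin-coated plates, and the sources used here do not say whether feeder cells were removed before RNA was taken. The control alignments are labelled ETOH, whereas the methods name DMSO as the vehicle of a 24 h pretreatment, so the vehicle of these controls is not settled and is called solvent. Nothing says that the replicates were separate cultures, so p-values measure only the spread between these libraries, which may be technical. In bulk RNA, fewer cells of a type and less RNA per cell cannot be told apart.

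The authors deposited, per gene, normalized expression values (a signal without a stated formula) and, per library, the alignments, each 35 bases long. The libraries held between 9785619 and 23467935 alignments, and 53.2% and 54.4% of those deposited with replicate 1 of solvent and MS-275 repeated a position, against 0% in replicate 2. ESC markers were present throughout: of the 10 on the list, including Pou5f1 and Nanog, none was listed below 0.0922 in any library. All 10 were lower with MS-275 in both pairs, against 26.5% of all genes tested, although Dppa5a barely differed in pair 1 (0.999-fold). With the replicate block described below, 4 of them passed as lower, against 6.46% of all genes. Over 11817 genes, which are not independent replicates and share the same libraries, the deposited values followed the positions per exon length (r = 0.914 in solvent replicate 1 on the log2 scale) more closely than the positions alone (r = 0.832), so levels of different genes are compared here on the deposited value and on positions per exon length. Closer still was the match of these values with the alignments deposited as solvent replicate 2 (r = 0.941), and likewise MS-275 replicate 1 matched the alignments of MS-275 replicate 2 (r = 0.929, against 0.890 for its own). The values of replicate 2 also matched the alignments deposited as replicate 1 more closely than their own. With solvent r was 0.899 against 0.866, and with MS-275 it was 0.879 against 0.815. Whether the alignments were exchanged or repeated positions were handled in another way was not tested. Replicate numbers for values and for positions are each those of the deposit.

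The collagen genes were weakly expressed in ESC, with medians of 0.00955 and 0.00686 in the solvent libraries and 0.0281 and 0.0168 in the MS-275 libraries. Together they held between 0.0238% and 0.0701% of the summed values of a library. Of the 42 genes, 39 and 37 reached 0.001 with solvent (replicates 1 and 2), and 41 and 40 with MS-275. The plot of the values by library shows that this level was reached by very different chains within each class.

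Col18a1, the multiplexin of vascular and epithelial basement membranes and the parent of endostatin, had the highest value of the family in all 4 libraries. It was 0.336 and 0.305 with solvent and 0.320 and 0.240 with MS-275, and the groups overlapped. Next in the solvent libraries came Col13a1, a transmembrane collagen of cell-matrix adhesions, with a mean of 0.0861 ± 0.0078 (SD, n = 2), and Col1a2 with 0.0847 ± 0.00519 (SD, n = 2), which did not differ beyond their spread. Per kilobase of exon and per 1000000 positions on exons, Col18a1 was also first with a mean of 28.5 with solvent and 23.4 with MS-275, ahead of Col9a2 with solvent (7.99) and of Col1a1 with MS-275 (9.03). The lowest mean over the 4 libraries was that of Col19a1, a FACIT chain, which stayed under 0.001 in every library and was the single member that the filter removed from the test. Col10a1, a chain of growth plate cartilage, was lower still in replicate 2 of both groups, at 0.00014 with solvent and 0.00032 with MS-275.

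**Figure D1:**
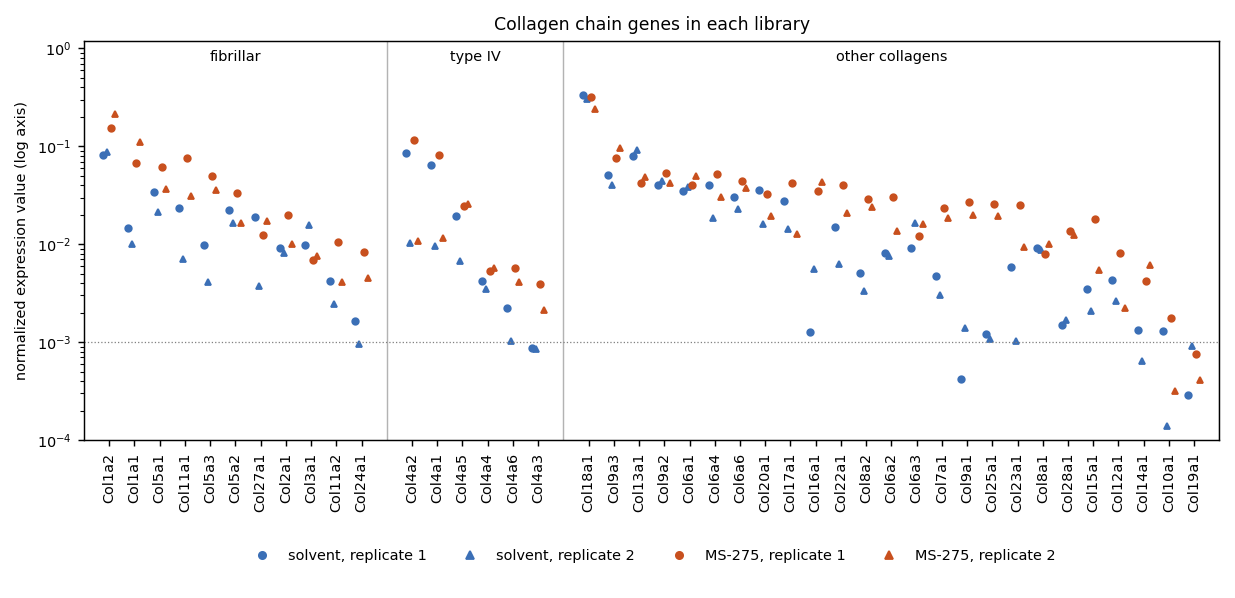
Normalized expression value (log axis) of the 42 collagen chain genes in each of the 4 libraries, grouped by class and ordered by mean value; blue marks are solvent, orange marks are MS-275, circles are replicate 1, triangles are replicate 2 and the dotted line is 0.001. The orange marks of Col1a1, Col5a3, Col16a1, Col9a1 and Col25a1 stand well above the blue ones, those of Col13a1 stand below, and Col4a1 and Col4a2 split by replicate instead of by treatment.

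Changes with MS-275 were tested with limma on log2(value + 0.005) across the 20336 genes that reached 0.001 in 2 or more libraries, a scale that understates the change of low genes. Without a replicate block, 0 of the 41 collagen genes tested passed an adjusted p of 0.05 in either direction, while an unadjusted p under 0.05 was met by 12 as higher and by 0 as lower. Few genes of any kind passed, 0.00492% of all genes as higher and 0% as lower. Replicate 1 of solvent and of MS-275 are both named old in the headers of the authors' tables, and same-numbered libraries deviated together from their group means (r = 0.764), so the replicate was also fitted as a block. With this block 17 collagen genes rose (41.5%), 1 fell (2.44%) and 23 did not pass, against 21.0% of all genes higher and 6.46% lower. In what follows, rose and fell refer to this fit.

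In all 17 genes that rose, both MS-275 libraries lay above both solvent libraries. Over the 41 genes tested, this held for 25 as higher and for 2 as lower (Col13a1 and Col3a1), against 32.3% and 12.0% of all genes. MS-275 was higher in both replicate pairs for 31 members and lower in both for 3, compared with 50.0% and 26.5% of all genes. At least 2-fold higher in both pairs were 16 of the 42, and 0 were at least 2-fold lower, where 11.5% and 2.04% of all listed genes were. The median log2 fold change of the collagens was 0.54, against 0.20 for all genes tested. Scaling the libraries by their median ratio moved the latter to -0.01 and the split of all calls with the block to 3344 higher and 2806 lower. The collagen median under that scaling was 0.37.

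As a second measure, distinct positions were counted on exons and tested with limma-voom. With the replicate block, 23 of the 40 collagen genes with enough positions were higher and 3 lower, against 24.0% and 20.2% of all genes. Without a block 14 collagen genes were still higher, where 12.4% of all genes were. All 18 genes that rose or fell in the values passed by this measure too, in the same direction. A further 8 passed by positions alone, of which 6 were higher (Col11a2, Col5a1, Col4a3, Col4a4, Col4a5 and Col4a6) and 2 lower (Col3a1 and Col18a1). By class, 7 of 11 fibrillar (63.6%), 4 of 6 type IV (66.7%) and 12 of 23 other chains (52.2%) were higher by positions with the block. The lack of type IV rises in the values was thus not seen by positions.

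**Figure D2:**
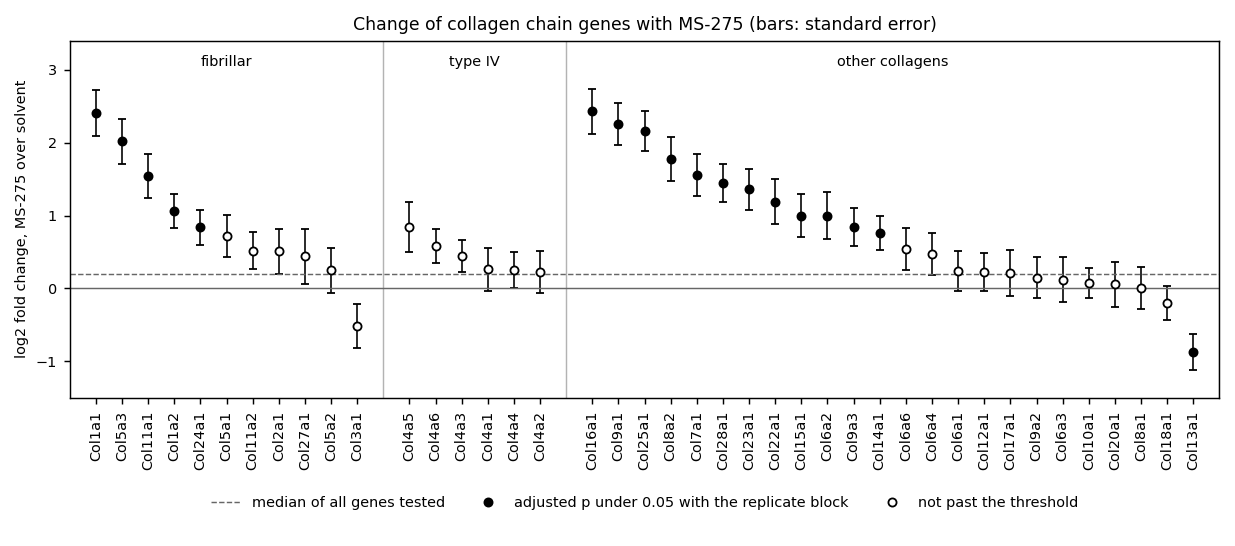
Log2 fold change of MS-275 over solvent for the 41 collagen genes tested, by class, with standard errors from the fit with the replicate block; filled points passed an adjusted p of 0.05 in that fit and the dashed line is the median of all genes tested (0.20). Filled points stand among the fibrillar and other collagens, and the 6 type IV chains are all open.

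Among fibrillar chains, 5 of 11 rose (45.5%, against 21.0% of all genes), 0 fell (against 6.46%) and 6 did not pass. The median log2 fold change was 0.72, against 0.20 for all genes. The chains that rose were both chains of type I collagen, the main protein of bone, skin and tendon (Col1a1, Col1a2), together with Col5a3, Col11a1 and Col24a1. Type V and XI chains are minor partners that nucleate fibrils and limit their width, and type XXIV is a fibrillar collagen of developing bone.

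Col1a1 (chr11:94797538-94814356 on mm9, plus strand, 52 coding exons) had values of 0.0146 and 0.0101 with solvent and of 0.0681 and 0.110 with MS-275. Both MS-275 libraries were far above the solvent ones, by 4.66-fold in pair 1 and 10.9-fold in pair 2. The log2 fold change was 2.41 (standard error 0.32 with the block, adjusted p = 5.6e-05 with the block and 0.0814 without). Distinct positions on its exons numbered 134 and 77 with solvent and 405 and 326 with MS-275. Its partner Col1a2 (chr6:4454814-4491543, plus strand) started from higher values, 0.081 and 0.0883 with solvent, and reached 0.153 and 0.216 with MS-275. The groups again did not overlap, and the change was smaller, 1.06 on the log2 scale (standard error 0.23, adjusted p = 0.00264 with the block and 0.196 without). Type I collagen is assembled from a pair of Col1a1 chains and one Col1a2 chain. The ratio of the Col1a1 value to the Col1a2 value went from 0.181 and 0.115 with solvent to 0.446 and 0.508 with MS-275. By value Col1a1 thus stayed below Col1a2 in every library. Positions per kilobase of exon, scaled as for Col18a1 above, gave another order. Col1a1 had 3 and 1.81 with solvent and 11.2 and 6.88 with MS-275. Col1a2 had 2.84 and 1.85 with solvent and 4.79 and 3.69 with MS-275. By this measure Col1a1 was below Col1a2 only in solvent replicate 2, so their order depended on the measure. The exon length it divides by covers all annotated exons, 6454 bases for Col1a1 and 12145 for Col1a2. The part of this length in the order was not tested.

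Col5a3 (chr9:20574494-20619511, minus strand) had 0.00991 and 0.00413 with solvent and 0.0501 and 0.0356 with MS-275, an increase by 2.02 on the log2 scale (standard error 0.31, adjusted p = 0.000206 with the block and 0.137 without). Its positions rose from 58 and 66 to 360 and 390, which made it the third of the family per exon length with MS-275, with 8.61 positions per kilobase and 1000000 positions on exons. The 2 other type V chains did not pass in the values. Col5a1 was at 0.0340 and 0.0213 with solvent and at 0.0620 and 0.0368 with MS-275, without overlap (log2 fold change 0.72, adjusted p = 0.0716 with the block). Col5a2 was at 0.0224 and 0.0164 with solvent and at 0.0335 and 0.0165 with MS-275, and the groups overlapped.

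Col11a1, which nucleates cartilage fibrils, had 0.0237 and 0.00703 with solvent and 0.0766 and 0.0310 with MS-275. The replicates differed about as much as the treatments did, yet the increase was alike in both pairs (3.23-fold and 4.41-fold), and on the log2 scale it came to 1.54 (standard error 0.30, adjusted p = 0.00132 with the block and 0.313 without). Without solvent replicate 2 it was 0.92, and without MS-275 replicate 1 it was 0.95. Col24a1 went from 0.00165 and 0.00096 to 0.00833 and 0.00454, a 5.05-fold and 4.54-fold difference within the pairs that the pseudocount compresses to a log2 fold change of 0.84 (adjusted p = 0.0164 with the block). Its positions, only 4 and 4 with solvent, numbered 31 and 56 with MS-275.

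The cartilage chain Col2a1 was at 0.00919 and 0.00808 with solvent and at 0.02 and 0.0101 with MS-275 and did not pass (log2 fold change 0.51, adjusted p = 0.233 with the block). Col11a2 and Col27a1 did not pass either, with log2 fold changes of 0.52 and 0.44. Col27a1 moved in opposite directions in the pairs, 0.647-fold in pair 1 and 4.6-fold in pair 2.

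Col3a1, the type III chain of skin and vessel walls and a usual companion of type I, stood on the other side. It was at 0.00992 and 0.0156 with solvent and at 0.00692 and 0.00755 with MS-275. The groups did not overlap, but the log2 fold change of -0.52 did not pass in the values (standard error 0.30, adjusted p = 0.206 with the block). By positions, with 63 and 18 for solvent and 24 and 9 for MS-275, it passed as lower (log2 fold change -1.24, adjusted p = 0.0142 with the block). Its convergent neighbour on chromosome 1, Col5a2, lies 24615 bases away, tail to tail, and its positions were 110 and 63 with solvent and 85 and 128 with MS-275.

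Of 20 markers of feeder fibroblasts, a list without collagens, 18 were tested, 8 rose (44.4%), 0 fell and 10 did not pass, against 21.0% of all genes higher and 6.46% lower. Their median log2 fold change was 0.54. By distinct positions with the block, 6 of 17 tested were higher and 3 lower, against 24.0% and 20.2% of all genes. Their summed value was 0.602 and 0.650 with solvent and 1.08 and 0.983 with MS-275. The largest rises were those of Fbn1, which encodes the microfibril protein fibrillin, and Pdgfrb, a receptor of mesenchymal cells, with log2 fold changes of 1.37 and 1.2. With single libraries left out, Fbn1 ran from 0.49 (without MS-275 replicate 1) and 0.55 (without solvent replicate 2) to 2.18 (without solvent replicate 1) and 2.25 (without MS-275 replicate 2). Dcn, a collagen-binding proteoglycan, and Cdh11, a mesenchymal cadherin, had the most negative log2 fold changes (-0.72 and -0.56). They did not pass in the values and passed as lower by positions (adjusted p = 0.0389 and 0.00885 with the block), as did Prrx1 (adjusted p = 0.0321). Fap was listed at 0 in 3 libraries and at 0.00036 in the remaining one, and Meox2 was at 0 in 1. The part of feeder cells in the collagen changes was not tested.

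None of the 6 type IV chains passed in the values, and their median log2 fold change was 0.35, against 0.20 for all genes. All 6 were higher with MS-275 in both pairs, as were 50.0% of all genes. Without a block 0 passed, adjusted or unadjusted, and by distinct positions 1 did (Col4a6). With the basement membrane zone chains Col7a1, Col15a1 and Col18a1 added, 2 of 9 rose and the median was 0.44. That share of 22.2% was close to the 21.0% of all genes that rose. The class splits into the embryonic pair Col4a1 and Col4a2, which every basement membrane uses, and the 4 chains found mainly in kidney, lung, eye and smooth muscle.

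Col4a1 (chr8:11198423-11312826, minus strand) and Col4a2 (chr8:11312805-11449287, plus strand) lie head to head. They overlap at their starts, which lie 21 bases apart. Col4a1 was at 0.0650 and 0.0096 with solvent and at 0.0823 and 0.0117 with MS-275. Col4a2 was at 0.0856 and 0.0104 with solvent and at 0.116 and 0.0109 with MS-275. Both genes thus differed between replicates by 6.77-fold or more and between treatments by 1.35-fold or less within a pair. Their log2 fold changes were 0.26 (standard error 0.96 without the block and 0.30 with it) and 0.23 (standard error 1.06 and 0.29). Without MS-275 replicate 1 they came to -0.93 and -1.23, and without solvent replicate 2 to -0.87 and -1.05, values that carry the offset between replicates.

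The value in replicate 1 over that in replicate 2 had a median of 1.31 over all genes in both groups. For Col4a1 it was 6.77 with solvent and 7.02 with MS-275, a ratio that 0.693% and 0.443% of all genes reached, and for Col4a2 8.22 and 10.6. Offsets of such size were also seen the other way, as in the ESC marker Dppa5a with 0.293 and 5.51 in the solvent libraries, and the replicates differ in the range of their values. The value that 1 gene in 1000 exceeds was 7.67 times the upper quartile in solvent replicate 1 and 77.4 times in solvent replicate 2. Under MS-275 these ratios were 6.94 and 94.7. Endoderm markers shared the offset of the type IV chains in part. The ratio of replicate 1 to replicate 2 for Lama1, the laminin chain of the embryonic basement membrane, was 6.63 and 5.40, and for Gata6, a transcription factor of primitive endoderm, 5.81 and 3.49. For Sparc, a matrix glycoprotein of parietal endoderm, it was 1.28 and 1.70, and for the thrombomodulin gene Thbd, another parietal endoderm marker, 0.309 and 0.173. By positions the order of the replicates was reversed for Col4a1 and Col4a2. Dppa5a had 225 and 191 positions with solvent and 208 and 209 with MS-275, so its large offset was seen in the values only. Col4a1 had 144 and 443 with solvent and 135 and 609 with MS-275, and Col4a2 had 78 and 205 with solvent and 56 and 316 with MS-275.

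Of the 15 markers of primitive or parietal endoderm, 14 were tested, 3 rose (21.4%) and 0 fell, a share of rises close to the 21.0% of all genes, with a median log2 fold change of 0.35. By distinct positions with the block, 4 of 13 tested were higher and 2 lower, against 24.0% and 20.2% of all genes. Their summed value was 2.16 and 1.62 with solvent and 2.23 and 1.69 with MS-275. The largest rises were those of Plat, the tissue plasminogen activator, and of Afp, a serum protein of visceral endoderm, with log2 fold changes of 3.20 and 1.37, while Nid1 and Sparc had the most negative ones (-0.54 and -0.53). These last genes did not pass in the values and passed as lower by positions (adjusted p = 0.000175 and 0.00359 with the block). Ttr was listed at 0 in 3 libraries. The part of endoderm-like cells in the type IV values was not tested.

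The remaining type IV chains had low values. Col4a5 was at 0.0195 and 0.0067 with solvent and at 0.0247 and 0.0258 with MS-275 (log2 fold change 0.84, adjusted p = 0.0776 with the block), and Col4a6 at 0.00224 and 0.00103 against 0.00579 and 0.00408 (0.58, adjusted p = 0.0739). Col4a3 was at 0.00087 and 0.00085 with solvent and at 0.00391 and 0.00213 with MS-275, and Col4a4 at 0.00421 and 0.00351 against 0.00528 and 0.00576. In each of these 4 genes the MS-275 libraries lay above the solvent libraries. By distinct positions all 4 passed as higher with the block, Col4a5 with 57 and 45 against 109 and 101 and Col4a6 with 8 and 14 against 40 and 46. The counts behind the other pair were small. Col4a3 had 6 and 3 with solvent and 13 and 19 with MS-275, with 0 in the first of 5 equal parts of its exons in every library, and Col4a4 had 9 and 0 against 24 and 21. These chains also lie in head-to-head pairs, Col4a3 and Col4a4 with 72 bases between their starts on chromosome 1, and Col4a5 and Col4a6 with 1309 on the X chromosome.

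**Figure D3:**
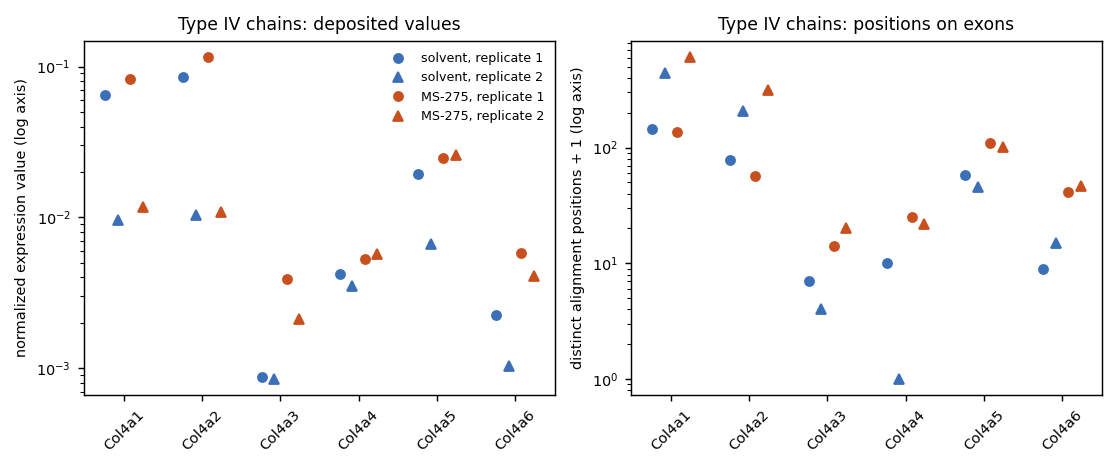
The 6 type IV chains in each library, as normalized expression values on the left and as distinct positions on exons plus 1 on the right (both log axes); blue is solvent, orange is MS-275, circles are replicate 1 and triangles are replicate 2. Col4a1 and Col4a2 separate by replicate in both panels but in opposite order, and Col4a3 to Col4a6 show both orange marks above both blue marks.

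Among the other collagens, 12 of the 24 tested rose (50%, against 21.0% of all genes), 1 fell (4.17%, against 6.46%) and 11 did not pass. Their median log2 fold change was 0.65, against 0.20 for all genes. By kind, 5 of 8 FACIT chains rose, 1 of 5 beaded filament chains, 1 of 3 short-chain network chains, 1 of 2 multiplexins, Col7a1 and Col28a1, and 2 of 4 transmembrane chains rose and 1 fell.

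On the log2(value + 0.005) scale the largest rise of the family was that of Col16a1 (chr4:129725084-129776527, plus strand), a FACIT chain of skin and cartilage matrix that links fibrils and microfibrils. Its values were 0.00126 and 0.00565 with solvent and 0.0354 and 0.0428 with MS-275, and the log2 fold change was 2.43 (standard error 0.31, adjusted p = 4.93e-05 with the block and 0.0786 without). Its positions were 47 and 8 with solvent and 130 and 82 with MS-275, a log2 fold change of 2.01 with the block that 8 collagens exceeded by positions, led by Col9a1 with 4.05. With quantile normalization Col16a1 stood at 1.95, below Col1a1 with 2.01. Col9a1 (chr1:24184449-24259577, plus strand), a chain of the type IX collagen that coats cartilage fibrils, was close to undetected with solvent, at 0.00042 and 0.0014, and reached 0.0272 and 0.0198 with MS-275. On the log2 scale the change was 2.26 (standard error 0.29, adjusted p = 5e-05 with the block and 0.06 without). Only 6 and 1 positions lay on its exons with solvent, against 71 and 51 with MS-275, so the solvent level rests on very few reads.

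Type IX collagen combines Col9a1 with Col9a2 and Col9a3, and these were already expressed in the solvent libraries. Col9a2 was at 0.0408 and 0.0441 with solvent and at 0.0536 and 0.0422 with MS-275, overlapping groups. Col9a3 was at 0.0509 and 0.0407 against 0.0763 and 0.0955 and rose, with a log2 fold change of 0.84 (adjusted p = 0.0269 with the block). The Col9a1 value was 0.0103 and 0.0318 of the Col9a2 value with solvent and 0.507 and 0.468 of it with MS-275. Among 8 chondrocyte markers, a list without collagens, 4 rose (50%, against 21.0% of all genes) and 0 fell, and their summed value was 0.154 and 0.0762 with solvent and 0.209 and 0.118 with MS-275. Their part in the change of Col9a1 was not tested.

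Of the further FACIT chains, Col22a1, a collagen of tissue junctions such as that of muscle and tendon, and Col14a1, which binds the surface of interstitial fibrils, rose with log2 fold changes of 1.19 and 0.76. Col22a1 came to 0.77 without solvent replicate 2 and likewise without MS-275 replicate 1. Col14a1 remained low, at 0.00134 and 0.00065 with solvent and at 0.00422 and 0.00614 with MS-275. Col12a1 and Col20a1 did not pass and had overlapping groups.

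The transmembrane collagens moved in opposite directions. Col25a1 (chr3:129883809-130302795, plus strand), a neuronal collagen whose shed fragment is found in amyloid plaques and which motor axons use to enter muscle, was at 0.00122 and 0.00108 with solvent and at 0.0260 and 0.0193 with MS-275. This was 21.3-fold and 17.9-fold within the pairs, or 2.16 on the log2 scale (standard error 0.28, adjusted p = 5.86e-05 with the block and 0.0621 without). It had 16 and 10 positions with solvent and 213 and 215 with MS-275. Col23a1 rose from 0.00588 and 0.00102 to 0.0253 and 0.00931 (log2 fold change 1.36, adjusted p = 0.00211 with the block, and 0.82 without MS-275 replicate 1). The epithelial hemidesmosome chain Col17a1 was at 0.0275 and 0.0142 with solvent and at 0.0426 and 0.0126 with MS-275, which overlapped. Of 4 keratinocyte markers tested 2 rose and 0 fell, against 21.0% and 6.46% of all genes.

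Col13a1 (chr10:61300984-61441856, minus strand) was the single collagen gene that fell. It was at 0.0806 and 0.0917 with solvent and at 0.0419 and 0.0482 with MS-275, and the replicates were close in both groups. Within the pairs MS-275 stood at 0.519 and 0.525 of solvent, and the log2 fold change was -0.87 (standard error 0.25, adjusted p = 0.0185 with the block and 0.407 without). Positions gave 240 and 177 with solvent and 117 and 119 with MS-275, a log2 fold change of -0.88. From the second highest mean value of the family with solvent it came to lie below Col1a1, Col1a2 and Col9a3 in both MS-275 libraries.

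In the anchoring and short-chain types, Col7a1, which ties epithelial basement membranes to the dermis, was at 0.00469 and 0.00307 with solvent and at 0.0237 and 0.0187 with MS-275 (log2 fold change 1.56, adjusted p = 0.00104 with the block). Col8a2, a chain of the corneal and vascular endothelial network, was at 0.00506 and 0.00334 against 0.0291 and 0.0239 (1.78, adjusted p = 0.000465). Its partner Col8a1 was at 0.00914 and 0.00866 with solvent and at 0.00789 and 0.0102 with MS-275, so the ratio of Col8a1 to Col8a2 went from 1.81 and 2.59 to 0.271 and 0.425. Of 5 endothelial markers tested 2 rose and 0 fell, against 21.0% and 6.46% of all genes. Col28a1, a collagen with von Willebrand factor domains found around peripheral nerve, went from 0.00151 and 0.00168 to 0.0136 and 0.0126 (1.45, adjusted p = 0.000811). Of the multiplexins, Col15a1, a basement membrane zone collagen, rose from 0.00349 and 0.0021 to 0.0183 and 0.00541 (1.0, adjusted p = 0.0169). Its change was 0.42 without MS-275 replicate 1 and 1.58 without MS-275 replicate 2. The other multiplexin, Col18a1, had a log2 fold change of -0.20 (adjusted p = 0.543).

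Of the type VI chains, which form beaded filaments around cells, 1 of 5 rose (20%, close to the 21.0% of all genes). Col6a2 rose from 0.00813 and 0.00754 to 0.0304 and 0.0137 (log2 fold change 1.0, adjusted p = 0.0296 with the block, and 0.54 without MS-275 replicate 1). Col6a1 was at 0.0351 and 0.0389 with solvent and at 0.0400 and 0.0494 with MS-275, and Col6a3 at 0.00909 and 0.0165 against 0.0120 and 0.0160. Col6a1 and Col6a2 lie on the same strand of chromosome 10, 85162 bases apart. Col6a4 and Col6a6 had log2 fold changes of 0.47 and 0.54 and did not pass.

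The plot of both measures sets the change in the values beside that in distinct positions for each gene. For low genes the change was larger by positions, as in Col23a1 (3.4 against 1.36) and Col24a1 (3.17 against 0.84), and the pseudocount of the value scale compresses small values. With quantile normalization, 6 of the 17 rises did not pass with the block (Col14a1, Col15a1, Col22a1, Col24a1, Col6a2 and Col9a3), and under median-ratio scaling Col6a2 and Col9a3 did not. Without a filter on low values 0 of 28250 genes passed with the block, where an unadjusted p under 0.05 was met by 3897 as higher and 1305 as lower. The other 11 rises and the fall of Col13a1 passed in every alternative fitted with the block apart from that one, wherever the gene was tested.

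**Figure D4:**
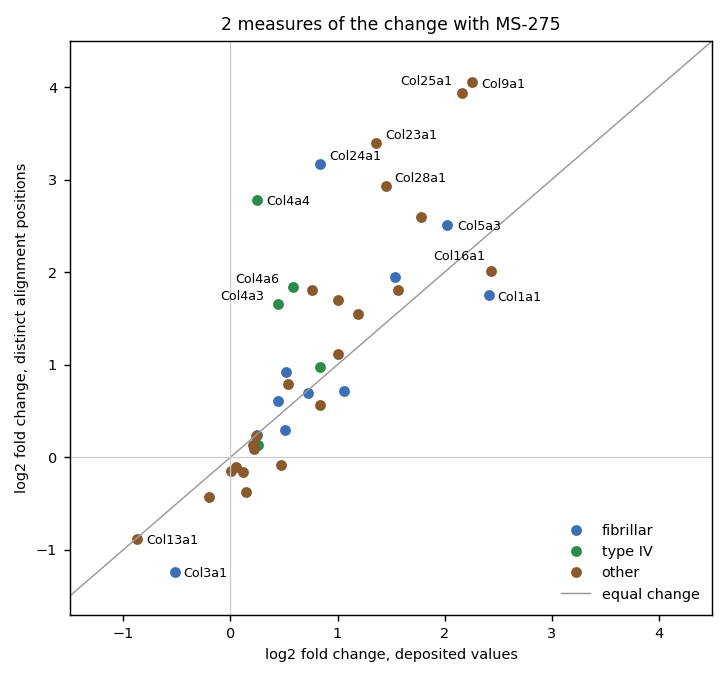
Log2 fold change of MS-275 over solvent for the 40 collagen genes tested both ways, from deposited values (horizontal) and from distinct alignment positions (vertical), both with the replicate block; colours give the class and the line marks equal change. Most genes that rose lie above the line, Col1a1, Col1a2, Col16a1 and Col9a3 lie below it, and Col13a1, Col3a1 and Col18a1 are below 0 on both axes.

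Promoter windows were available in RefSeq (GRCm38.p6, 250 bases before to 50 after a start) for 34 of the 42 genes, in 37 windows, and those without one were Col1a1, Col2a1, Col4a3, Col5a2, Col9a3, Col12a1, Col14a1 and Col22a1. The windows were searched on both strands for GGGCGG (the GC box), CCAAT and TATAAA (the TATA box), letter matches that can overlap and say nothing of binding. GGGCGG stood in 59.5% of the collagen windows and 35.7% of all 32851 windows. CCAAT stood in 35.1% and 37.4%, and TATAAA in 13.5% and 13.6%. The median window held 12 CpG and 59.7% GC, against 7 CpG and 52.7% GC in all windows. By class, GGGCGG was found in 6 of 8 fibrillar windows, 4 of 5 type IV windows and 12 of 24 others. Of the 15 windows of genes that rose, 10 held GGGCGG (66.7%) and 0 held TATAAA, and their CpG count ran from 0 to 32. The sequences printed here show how unlike the windows of genes with large or opposite changes were, with matches in capitals, 5′ to 3′ along the gene.

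The windows of Col16a1 (chr4:130047590-130047889, plus strand) and Col25a1 (chr3:130180595-130180894, plus strand), both among the largest rises, held 24 and 23 CpG and matches to GGGCGG and CCAAT. That of Col1a2 (chr6:4505368-4505667, plus strand) held 13 CpG and the same motifs.
Col16a1: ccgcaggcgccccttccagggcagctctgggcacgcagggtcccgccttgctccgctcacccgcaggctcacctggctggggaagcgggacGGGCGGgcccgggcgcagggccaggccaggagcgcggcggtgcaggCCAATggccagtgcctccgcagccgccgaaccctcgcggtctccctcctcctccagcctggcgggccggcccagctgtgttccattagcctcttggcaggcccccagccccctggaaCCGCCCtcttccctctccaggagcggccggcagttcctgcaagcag
Col25a1: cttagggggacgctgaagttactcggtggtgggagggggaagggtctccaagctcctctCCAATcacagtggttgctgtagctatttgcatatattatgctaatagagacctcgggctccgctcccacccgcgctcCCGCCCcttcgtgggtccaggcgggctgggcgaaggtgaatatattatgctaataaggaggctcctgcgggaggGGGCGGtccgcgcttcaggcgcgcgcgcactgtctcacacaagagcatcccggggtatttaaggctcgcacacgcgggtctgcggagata
Col1a2: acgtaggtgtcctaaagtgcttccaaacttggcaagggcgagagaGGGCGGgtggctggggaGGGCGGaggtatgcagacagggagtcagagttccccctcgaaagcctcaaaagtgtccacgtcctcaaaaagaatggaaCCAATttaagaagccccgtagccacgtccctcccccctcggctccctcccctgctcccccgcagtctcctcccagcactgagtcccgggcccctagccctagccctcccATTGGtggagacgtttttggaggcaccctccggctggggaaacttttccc

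Col9a1, also among the largest rises, had windows of another kind, and which start was in use was not tested. RefSeq gives it an upstream start (chr1:24177360-24177659, plus strand) and a downstream start (chr1:24194953-24195252, plus strand), with 0 and 1 CpG and no GGGCGG in either.
Col9a1 upstream: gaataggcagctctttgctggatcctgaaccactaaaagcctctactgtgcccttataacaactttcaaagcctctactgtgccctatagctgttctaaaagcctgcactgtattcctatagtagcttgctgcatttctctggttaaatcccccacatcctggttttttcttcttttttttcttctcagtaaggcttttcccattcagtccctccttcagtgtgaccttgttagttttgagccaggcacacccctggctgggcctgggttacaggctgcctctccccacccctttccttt
Col9a1 downstream: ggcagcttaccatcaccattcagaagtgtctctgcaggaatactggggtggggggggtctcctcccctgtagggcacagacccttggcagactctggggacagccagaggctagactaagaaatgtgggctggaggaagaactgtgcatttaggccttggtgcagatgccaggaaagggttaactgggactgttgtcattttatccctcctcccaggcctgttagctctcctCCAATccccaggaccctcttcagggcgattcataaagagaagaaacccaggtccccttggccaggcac

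The genes that were lower with MS-275 also differed from each other. Col13a1 (chr10:61979059-61979358, minus strand) had a window with 29 CpG and Col3a1 (chr1:45311288-45311587, plus strand) one with 0, and each held a single TATAAA and neither of the other motifs.
Col13a1: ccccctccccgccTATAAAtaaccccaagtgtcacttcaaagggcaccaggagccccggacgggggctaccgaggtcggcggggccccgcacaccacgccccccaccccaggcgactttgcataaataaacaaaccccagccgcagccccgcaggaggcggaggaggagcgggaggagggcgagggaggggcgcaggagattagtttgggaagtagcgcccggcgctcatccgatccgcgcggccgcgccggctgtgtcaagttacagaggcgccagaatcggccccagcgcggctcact
Col3a1: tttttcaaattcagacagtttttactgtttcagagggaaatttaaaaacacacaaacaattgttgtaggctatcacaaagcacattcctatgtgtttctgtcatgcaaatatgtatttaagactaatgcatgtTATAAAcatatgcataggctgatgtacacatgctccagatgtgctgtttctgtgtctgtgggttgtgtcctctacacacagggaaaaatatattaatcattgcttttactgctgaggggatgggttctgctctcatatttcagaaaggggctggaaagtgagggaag

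Col4a1 (chr8:11312777-11313076, minus strand) and Col4a2 (chr8:11312555-11312854, plus strand), which moved together between replicates, have windows that share 78 bases on opposite strands. They held 37 and 33 CpG, and GGGCGG matched 1 time and 3 times.
Col4a1: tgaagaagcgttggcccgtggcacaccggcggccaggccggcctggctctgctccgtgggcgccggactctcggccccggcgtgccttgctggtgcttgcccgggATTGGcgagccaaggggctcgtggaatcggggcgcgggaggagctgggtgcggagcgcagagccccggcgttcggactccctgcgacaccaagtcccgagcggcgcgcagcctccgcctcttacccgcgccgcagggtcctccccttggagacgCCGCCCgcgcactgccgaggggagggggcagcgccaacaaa
Col4a2: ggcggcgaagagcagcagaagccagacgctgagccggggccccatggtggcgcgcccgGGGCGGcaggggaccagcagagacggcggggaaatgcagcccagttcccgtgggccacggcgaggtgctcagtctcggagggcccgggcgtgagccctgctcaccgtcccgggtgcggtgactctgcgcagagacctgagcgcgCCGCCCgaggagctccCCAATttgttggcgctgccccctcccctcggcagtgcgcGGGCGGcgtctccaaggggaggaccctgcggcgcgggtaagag

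The classes also differ in a feature of the genes themselves that the rule did not use. The glycine repeat of a collagen helix is written in codon triplets of 9 bases, and fibrillar genes are known for exons of 54 bases. In the mm9 annotation, 305 of 667 coding exons of the fibrillar genes had exactly 54 bases (45.7%), against 150 of 1085 in the other collagens (13.8%), 12 of 314 in type IV (3.82%) and 0.655% of all coding exons. Exons whose length is a multiple of 9 made up 80.7% of the fibrillar, 51.2% of the other and 44.3% of the type IV coding exons, and 14.4% of all. Col1a1 and Col3a1, which stood on opposite sides of solvent in both pairs, both have 52 coding exons, of which 21 and 24 had 54 bases.

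Beyond the chains, 29 of 31 genes for collagen modification, folding, trimming and cross-linking were listed and all 29 were tested, with a median log2 fold change of 0.20. With the block 6 rose (20.7%, against 21.0% of all genes), 8 fell (27.6%, against 6.46%) and 15 did not pass, and without it 0 passed, where an unadjusted p under 0.05 was met by 6 as higher and 2 as lower. All 14 passed by distinct positions in the same direction. By that measure with the block, 8 of 26 tested were higher (30.8%) and 8 lower, against 24.0% and 20.2% of all genes. Those beyond the 2 largest changes in each direction are named here after their values were seen.

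P4ha2, a catalytic subunit of the prolyl 4-hydroxylase that stabilises the triple helix, was at 0.0979 and 0.0701 with solvent and at 0.232 and 0.423 with MS-275 (log2 fold change 1.86, standard error 0.27, adjusted p = 0.000142 with the block). The other catalytic subunit P4ha1 was at 0.212 and 0.177 against 0.337 and 0.553 (1.14, adjusted p = 0.00362). Neither gene overlapped between groups. The lysyl oxidase family members Loxl4 and Loxl2, which cross-link fibrils, had log2 fold changes of 1.19 and 1.08, the procollagen N-proteinase Adamts3 of 1.10 and the lysyl hydroxylase Plod1 of 0.94. Without solvent replicate 2, Loxl2 came to 0.67 and Plod1 to 0.28, and without solvent replicate 1 Plod1 came to 1.61.

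Among the genes that fell, Serpinh1, the collagen-specific chaperone HSP47, was at 0.288 and 0.305 with solvent and at 0.158 and 0.167 with MS-275 (log2 fold change -0.85, standard error 0.22, adjusted p = 0.00896 with the block). Fkbp10, a prolyl isomerase that works with it, was at 0.0813 and 0.0522 against 0.0327 and 0.0171 (-1.28, adjusted p = 0.00312). In both genes each MS-275 library was below each solvent library. Crtap, a member of the prolyl 3-hydroxylation complex, had a log2 fold change of -0.83, and Leprel4 (now P3h4), a partner in lysine hydroxylation, of -0.93. Plod3 and Glt25d1, which hydroxylate and glycosylate collagen lysines, were at -1.07 and -0.68. The procollagen proteinase Adamts14 and the proteinase enhancer Pcolce2 were at -1.10 and -1.03. Members of the same enzyme families thus stood in both directions, Plod1 and Adamts3 against Plod3 and Adamts14. Without MS-275 replicate 1, Adamts14, Plod3 and Glt25d1 came to -1.75, -1.7 and -1.29, and without MS-275 replicate 2 to -0.46, -0.44 and -0.067. Without solvent replicate 1, Adamts14, Glt25d1 and Crtap came to -0.73, -0.36 and -0.55. Ppib, the isomerase of the Crtap complex, was at 0.502 and 0.908 with solvent and at 0.538 and 0.845 with MS-275 and did not pass.

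**Figure D5:**
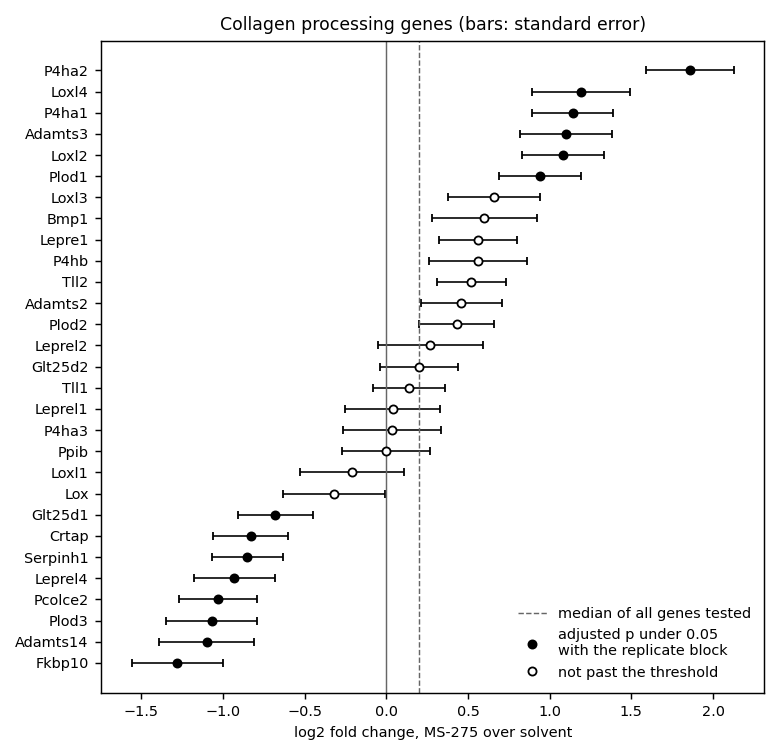
Log2 fold change of MS-275 over solvent for the 29 collagen processing genes tested, with standard errors from the fit with the replicate block; filled points passed an adjusted p of 0.05 in that fit and the dashed line is the median of all genes (0.20). The 6 filled points on the right are led by P4ha2 (1.86), and the 8 on the left by Fkbp10 (-1.28).

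Of 9 collagen receptor genes, 7 were listed and 6 tested, of which 2 rose and 0 fell, against 21.0% and 6.46% of all genes, with a median log2 fold change of 0.46. Ddr1, a receptor tyrosine kinase for collagen, was at 0.0357 and 0.0262 with solvent and at 0.0911 and 0.0512 with MS-275 (log2 fold change 1.05, adjusted p = 0.0104 with the block). Itga2, a collagen-binding integrin chain, was at 0.0018 and 0.00195 against 0.0126 and 0.00304 (0.79, adjusted p = 0.0496). Both genes were higher in both MS-275 libraries. Without MS-275 replicate 1, Ddr1 came to 0.66 and Itga2 to 0.23, and without MS-275 replicate 2 Itga2 came to 1.35. Itga11 and Lair1 had log2 fold changes of 0.15 and -0.0048 and did not pass.

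The collagenase list held 7 genes, including the endocytic collagen receptor Mrc2, which is no protease, and 6 were tested. Of these 2 rose and 1 fell, against 21.0% and 6.46% of all genes, and the median log2 fold change was -0.12. Mmp14, the membrane-anchored collagenase, was at 0.0417 and 0.0527 with solvent and at 0.0141 and 0.00955 with MS-275 (log2 fold change -1.64, adjusted p = 0.00123 with the block). Mmp9, a gelatinase that also cleaves type IV collagen, was at 0.00818 and 0.00606 against 0.0342 and 0.0249 (1.5, adjusted p = 0.00191). Ctsk, the collagen-cutting cathepsin of osteoclasts, was at 0.00207 and 0.00115 against 0.0105 and 0.0172 (1.49, adjusted p = 0.00104). In all 3 genes the groups did not overlap. Mmp2, with the highest value of the list in every library, was at 0.156 and 0.0823 with solvent and at 0.188 and 0.0798 with MS-275, and Mmp13 had a log2 fold change of -0.47 and did not pass.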

How the data were processed

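RNA-seq libraries of TBV2 ESC, 2 with solvent and 2 with MS-275, were grouped by their titles. In either condition the library titled as a duplicate is replicate 2. The authors mapped reads of 36 bases to mm9 and deposited normalized expression signal values made with Genomatix. The formula, aligner and handling of repeated reads are not given in the sources used here. As the signal values are not counts, no count test was run on them. The authors' shorter tables repeat these values and their ratio columns were not used.

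The fit used limma 3.58.1 in R 4.3.3 (lmFit, eBayes with a trend, Benjamini-Hochberg adjustment over all genes tested), and was checked on simulated data. Tables and plots used Python 3.11.15, numpy 2.4.6, pandas 2.3.3 and matplotlib 3.10.9. The authors' column headers pair the replicates, and same-numbered libraries deviated together (r = 0.764 over 20336 genes, 0.703 over 41 collagens), so the blocked value stands beside the other. For the fold rule, values under 0.001 were set to 0.001. The deposited alignments were also used, as other positions on mm9: distinct positions and strands on GENCODE M1 exons were tested with limma-voom, using the trimmed mean of M-values, for genes with 10 or more in 2 or more libraries. Without counts behind a value, its depth is unknown.

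Members, lists and tests were chosen with earlier results of these data known. Named were all fibrillar and type IV chains, other collagens that passed or were at least 2-fold in both pairs, the highest and lowest of the rest, and the 2 largest changes each way in a list. The ESC, chondrocyte, endothelial and keratinocyte lists are given by counts. Further chains and genes were named after their values were seen. Alternatives varied the pseudocount (0.001, 0.02), the filter (none, or a mean of 0.01), the scaling (quantile, median ratio), the eBayes trend, the folds and the floors, and left out each library in turn.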

Additional observations from a re-analysis of the deposited data

How the results depend on the processing

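With 2 libraries per group and 2 pairs, calls rest on few degrees of freedom, and a fit without 1 library is given as a value only. The replicate block moved the count of collagens from 0 higher and 0 lower to 17 and 1. Without a block, a mean value of at least 0.01 gave 3 higher and distinct positions 14. With the block, no filter gave 0 and 0, quantile normalization 11 and 2, and distinct positions 3 lower. Raising low values to 0.005 and 0.01 left 10 and 6 genes at least 2-fold higher in both pairs, and a minimum of 1.5-fold gave 1 lower.

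The direction of the 18 genes that passed with the block was the same in all 370 of their alternatives. In this balanced layout the block, the eBayes trend and the filters cannot change a log2 fold change of the values. Many of these agreements were therefore fixed in advance. Quantile normalization reversed the log2 fold changes of Col27a1 (-0.019), Col2a1 (-0.047), Col4a1 (-0.12), Col4a2 (-0.091), Col4a4 (-0.22), Col5a2 (-0.25), Itga11 (-0.25), Col10a1 (-0.17), Col12a1 (-0.25), Col17a1 (-0.26), Col20a1 (-0.39), Col6a1 (-0.094), Col6a3 (-0.41), Col8a1 (-0.51), Col9a2 (-0.15) and Ppib (0.12), with or without the block. Median-ratio scaling reversed those of Col17a1 (-0.022), Col20a1 (-0.18), Col6a1 (-0.018), Col6a3 (-0.094), Col8a1 (-0.17), Col9a2 (-0.11) and Mmp2 (-0.17), again with or without the block. Distinct positions reversed, without and with the block, Lair1 (0.70 and 0.61), Col6a3 (-0.11 and -0.16), Col6a4 (-0.078 and -0.089), Col8a1 (-0.16 and -0.15), Col9a2 (-0.39 and -0.38), Ppib (0.072 and 0.074) and Mmp2 (-0.014 in both), and with the block Col20a1 (-0.11). The cause was not tested.

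The median log2 fold change of all collagens was 0.85 and 0.28 with pseudocounts of 0.001 and 0.02, 0.63 with the mean filter, 0.37 with median-ratio scaling, 0.16 with quantile normalization and 0.82 by positions. In the same order (pseudocounts, median-ratio, quantile) the fibrillar median was 0.85, 0.31, 0.48 and 0.37, that of the other collagens 0.75, 0.36, 0.44 and 0.29, and that of type IV 0.74, 0.19, 0.24 and 0.0076. The median of the other collagens was also 0.69 with the mean filter, 0.54 without a filter and 0.70 by positions. That of type IV was 0.26 with the mean filter, 1.32 by positions and 0.44 with Col7a1, Col15a1 and Col18a1. The biosynthesis median was -0.0027 with the mean filter, -0.16 with quantile normalization, 0.063 with median-ratio scaling, 0.086 with a pseudocount of 0.02 and 0.09 by positions, and the receptor median 0.19 with median-ratio scaling and 0.24 with quantile normalization. The collagenase median was -0.17 and -0.031 with the pseudocounts, -0.071 without a filter, -0.35 and -0.41 with median-ratio scaling and quantile normalization, and -0.014 by positions.

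With each library left out in turn, the median ran from 0.42 to 0.93 for all collagens, 0.45 to 1.0 for fibrillar, 0.25 to 1.04 for type IV and 0.43 to 0.89 for other chains. It ran from 0.10 to 0.45 for biosynthesis, 0.17 to 0.80 for receptors and -0.30 to 0.22 for collagenases. Genes that changed direction were Col27a1 (-0.30 to 1.17), Col4a1 (-0.93 to 1.45), Col4a2 (-1.23 to 1.69), Col5a2 (-0.17 to 0.67), Dcn (-1.48 to 0.048), Itga11 (-0.15 to 0.44), Lair1 (-0.41 to 0.40), Col10a1 (-0.10 to 0.25), Col12a1 (-0.22 to 0.65), Col17a1 (-0.50 to 0.93), Col20a1 (-0.43 to 0.54), Col6a3 (-0.18 to 0.43), Col8a1 (-0.11 to 0.13), Col9a2 (-0.0052 to 0.31), Ppib (-0.43 to 0.42) and Mmp2 (-0.49 to 0.70).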

Other observations

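Collagen chains also exist under symbols that the rule does not match. Emid2, an older symbol of the type XXVI chain Col26a1, was listed at 0.113 and 0.0424 with solvent and at 0.0737 and 0.0515 with MS-275, so the groups overlapped. Distinct positions on the exons of Col6a5, a type VI chain with no listed value under that symbol, numbered 122 and 114 with solvent and 74 and 164 with MS-275, which also overlapped.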
